A study of Mus musculus with 6 samples.

Results

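Proteasome genes were read out by RNA sequencing in CD8+ T cells from mouse spleen that had received L-4F, a short peptide made to mimic apolipoprotein A1, or its ABCT buffer. The genes were all rows of the deposited table whose symbol begins with Psma, Psmb, Psmc, Psmd, Psme, Psmf or Psmg and goes on with a digit. This rule found 51 of 24559 rows, of which 5 (Psmb8, Psmb9, Psmb10, Psme1 and Psme2) form the immunoproteasome set and 46 are the rest. All 6 libraries came from C57BL/6 wild-type cells that the labels call a primary culture, 3 from cells given L-4F and 3 from cells given ABCT buffer, so both groups share strain, tissue and culture and differ in the peptide. The aim stated with the series was to learn how apolipoprotein A1 acts on the immune functions of these cells. The labels give no dose, no time, no animal age and no composition of the buffer, and they do not say whether replicates are separate mice or cultures. The p-values therefore measure only the spread between these libraries, which may be technical.

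The proteasome is the barrel-shaped protease that degrades proteins tagged with ubiquitin. Its 20S core has outer alpha rings and inner beta rings, and the active sites sit in 3 of the beta subunits. The 19S cap binds ubiquitin chains, unfolds the substrate with its ring of ATPases and feeds it into the core. In lymphocytes, and in other cells under interferon gamma, the beta subunits encoded by Psmb8, Psmb9 and Psmb10 replace those encoded by Psmb5, Psmb6 and Psmb7 in newly built cores, and the PA28 alpha and beta activator, encoded by Psme1 and Psme2, can take the place of the 19S cap. The resulting immunoproteasome makes many of the peptides that MHC class I molecules present to CD8+ T cells.

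Each library held between 25073292 and 31332003 reads over the genes of the table. Levels are given as normalized reads, the read count of a gene divided by the library's size factor. Differences are log2 fold changes, L-4F minus buffer, on the log2(normalized reads + 1) scale, with their standard error (SE). A gene was tested when it had at least 10 normalized reads in at least 3 libraries, and it was called higher or lower at a limma adjusted p under 0.05. Over all genes tested, 18.4% were called higher and 19.7% lower. Of the CD8 T cell markers Cd8a, Cd8b1, Cd3e, Cd3g, Cd3d, Trac and Lck, none was at 0 and 6 of 7 were called higher with L-4F, with a summed level of 91348 to 92189 normalized reads in buffer and 104047 to 107863 with L-4F. Summed markers of other cells stayed far lower, at 644 to 704 and 617 to 674 for CD4 T cells (1 of 3 called lower, Cd4 itself), and 221 to 258 and 306 to 338 for B cells (1 of 4 tested called higher, Cd79b). For myeloid and dendritic cells the sums were 1606 to 1863 and 1685 to 1754 (none of 8 tested called). For NK cells they were 6485 to 6812 and 6770 to 7006 (1 of 4 called higher, Klrb1c, with Eomes giving most of the sum). Red cell genes summed to 132 to 169 and 212 to 226 (2 of 2 tested called higher, none with the transcript length trend removed), and stroma and endothelium genes to 1729 to 1754 and 1782 to 1937 (1 tested, Pecam1, not called). The Cd4 call was lost when any 1 buffer library or L-4F replicate 3 was left out (log2 fold change -0.71 to -0.55, limma adjusted p = 0.0568 to 0.1), and at the FDR in the authors' deposited table. The Klrb1c call was lost without ABCT buffer replicate 3 or L-4F replicate 2 or 3 (0.18 to 0.22), and that of Hba-a1 without ABCT buffer replicate 3 (0.47, limma adjusted p = 0.0638). Cdh5 and Pax5 were at 0 in 3 or more libraries. In bulk RNA, more cells of a type and more RNA per cell cannot be told apart, and the part that these markers have in the proteasome results was not tested.

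Most proteasome genes were higher with L-4F. Of 49 genes tested, 36 were called higher and 2 lower, and 11 were not called, while over all 14922 genes tested 18.4% were called higher and 19.7% lower. The median log2 fold change of the proteasome genes was 0.23, with a range of -0.20 to 0.46, beside -0.00 over all genes tested. The lowest L-4F library lay above the highest buffer library for 38 of the 49 (23.2% of all genes tested), and the highest L-4F library lay below the lowest buffer library for 3 (24.4% of all genes tested). Together the rows held 6481 to 6505 CPM (the usual scaling of a count to the total reads of its library) in the buffer libraries and 7331 to 7445 in the L-4F libraries. The largest change, in Psmb10, was 1.38-fold, and the medians of the structural classes ran from 0.02 to 0.36. At the FDR in the authors' deposited table, 34 were higher (10.2% of its rows) and 2 lower (11% of its rows).

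**Figure D1:**
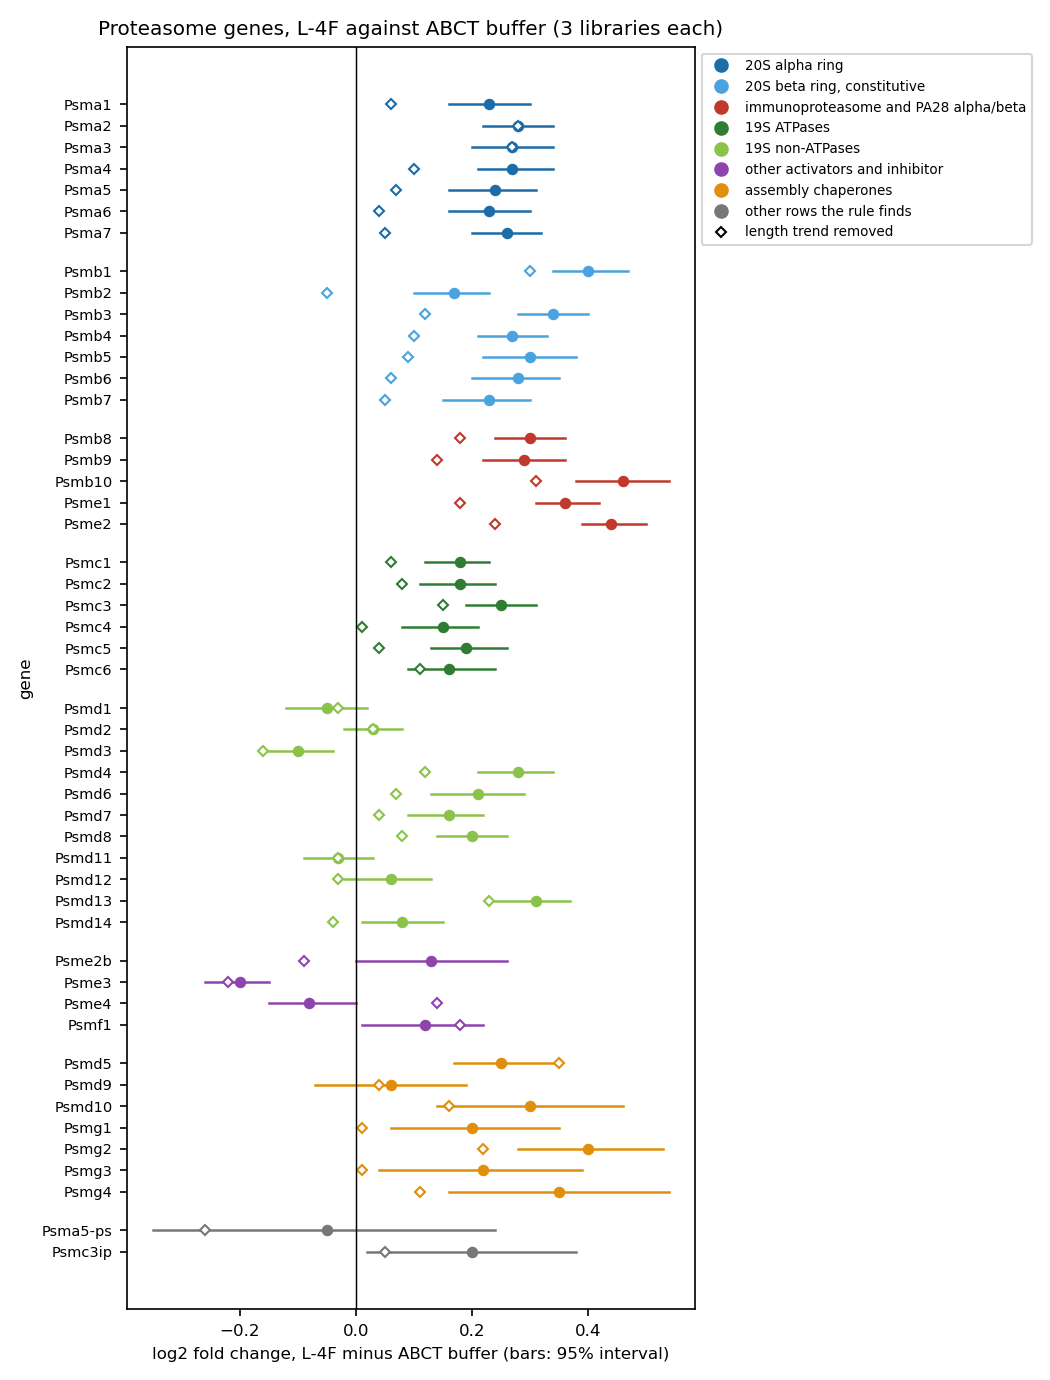
Log2 fold change (L-4F minus ABCT buffer, horizontal axis) of the 49 proteasome genes tested (vertical axis), by structural class; filled points are the limma estimates from 3 libraries in each group, bars their 95% interval, and open diamonds the estimates after a trend in the length of the coding transcript was removed. Filled points lie right of 0 for all core, ATPase and chaperone genes tested, and Psme3 lies furthest left at -0.20. The diamonds of many core and cap genes lie close to 0, while those of the 5 immunoproteasome genes lie between 0.14 and 0.31.

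All 5 genes of the immunoproteasome set were called higher, and their log2 fold changes ran from 0.29 to 0.46 around a median of 0.36. Of the 44 other genes tested, 31 were called higher, 2 lower and 11 not, with a median of 0.21 and a highest value of 0.40. The 5 genes summed to 1284 to 1301 CPM in the buffer libraries and 1598 to 1669 with L-4F, and the other genes to 5185 to 5221 and 5734 to 5778. These medians and sums describe the lists, and the difference between the lists as such was not tested.

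Psmb8, on chr17:34197721-34201454 (plus strand; all gene positions are from GENCODE M21 on GRCm38), encodes the immunoproteasome subunit with chymotrypsin-like activity. Its 3 buffer libraries held 10718, 10325 and 10425 normalized reads and its 3 L-4F libraries 13360, 13035 and 12318. Every L-4F library was above every buffer library, a log2 fold change of 0.30 (SE 0.027, limma adjusted p = 1.86e-08). Psmb9, on chr17:34181987-34187764 (minus strand), lies near Psmb8 in the MHC region, with the gene Tap1 between them. Psmb9 encodes the subunit that replaces the caspase-like site. It held 3353, 3505 and 3405 normalized reads in buffer and 4267, 4074 and 4193 with L-4F, again with no overlap, a log2 fold change of 0.29 (SE 0.032, limma adjusted p = 2.69e-07). Psmb10, on chr8:105935735-105938444 (minus strand), encodes the subunit with trypsin-like activity. Its levels were 2533, 2625 and 2725 normalized reads in buffer and 3459, 3730 and 3680 with L-4F. The groups were well apart, and the log2 fold change of 0.46 (SE 0.038, limma adjusted p = 2.35e-09) was the highest of all proteasome genes tested.

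The constitutive counterparts of these 3 subunits were also higher with L-4F. Psmb5, which Psmb8 replaces, had 2065, 1955 and 2088 normalized reads in buffer and 2522, 2452 and 2541 with L-4F, a log2 fold change of 0.30 (SE 0.039, limma adjusted p = 2.4e-06). Psmb6, which Psmb9 replaces, had 2683, 2743 and 2639 and then 3321, 3313 and 3137, a log2 fold change of 0.28 (SE 0.035, limma adjusted p = 1.84e-06). For both genes the groups did not overlap. Psmb7, which Psmb10 replaces, had 2488, 2614 and 2532 in buffer and 2933, 2976 and 3015 with L-4F, a log2 fold change of 0.23 (SE 0.035, limma adjusted p = 2.23e-05), also without overlap.

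**Figure D2:**
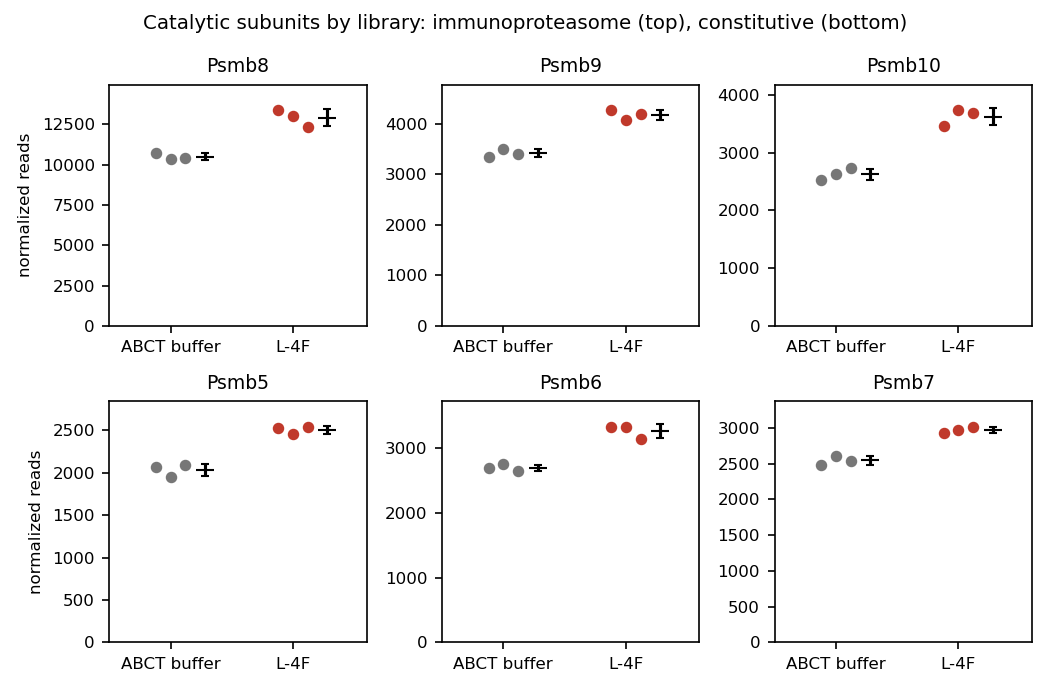
Normalized reads (vertical axes, from 0, one scale per gene) of the 3 immunoproteasome catalytic genes (top row) and the constitutive gene that each replaces (bottom row), with 1 point per library and the group mean with SD bars beside the points (n = 3 per group). In every panel the 3 L-4F points lie above the 3 buffer points, and relative to the level of the gene the gap is widest for Psmb10, at 2533 to 2725 against 3459 to 3730.

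Because both members of each pair rose, the share of the immunoproteasome form was computed in each library from reads per kilobase of the longest annotated transcript. Library scaling cancels in such a share. Psmb8 was 70.8% ± 0.60 (SD, n = 3) of Psmb8 plus Psmb5 in buffer and 70.8% ± 1.09 with L-4F (difference -0.02 percentage points, exact permutation p = 1, two-sided). Psmb9 was 29.9% ± 0.34 of Psmb9 plus Psmb6 in buffer and 30.1% ± 0.88 with L-4F (difference 0.18, exact permutation p = 0.9). For these 2 pairs the difference was smaller than the SD of either group. Psmb10 was 68.9%, 68.6% and 70.0% of Psmb10 plus Psmb7 in the buffer libraries and 71.9%, 73.1% and 72.6% in the L-4F libraries, all 3 above all buffer values. The difference of 3.40 percentage points had an exact permutation p of 0.1, the smallest that 3 against 3 libraries can give, or 0.3 after Benjamini-Hochberg adjustment over the 3 shares. The height of each share depends on the length used: with the transcript that has the longest coding part, Psmb10 made up 47.7% in buffer and 51.9% with L-4F, and Psmb9 42.9% and 43.1%. The log2 ratio of Psmb10 to Psmb7 moved by 0.24, against -0.00 for Psmb8 to Psmb5 and 0.01 for Psmb9 to Psmb6. With a trend in transcript length removed, these differences were 0.10 for Psmb10, 0.10 for Psmb8 and 0.19 for Psmb9, and with the coding length trend removed 0.26, 0.10 and 0.09, so the order of the pairs depends on the length used.

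Psme1 and Psme2 encode the alpha and beta chains of PA28, the ring that opens the core without ATP. Psme1, on chr14:55578123-55581529 (plus strand), had 11390, 11500 and 11079 normalized reads in buffer and 14766, 14972 and 13966 with L-4F, a log2 fold change of 0.36 (SE 0.026, limma adjusted p = 3.27e-10). Psme2, on chr14:55587441-55591113 (minus strand), had 7782, 7946 and 7592 and then 10623, 10960 and 10159, a log2 fold change of 0.44 (SE 0.028, limma adjusted p = 4.58e-11). In both genes all L-4F libraries lay above all buffer libraries, by more than the range within either group. Per kilobase of longest transcript the levels in buffer were 8080 ± 184 normalized reads (SD, n = 3) for Psme2, 5701 ± 110 for Psme1 and 5500 ± 107 for Psmb8. These were the 3 highest levels per kilobase among the 49 proteasome genes in both groups, and the next in buffer, Psmb2 at 3851 ± 24.9, lay outside their range. They stayed the 3 highest with the length of the coding transcript, where Psme1 at 10183 ± 196 came before Psme2.

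None of the 4 other activator and inhibitor genes was called higher, and 1 was called lower. Psme3 encodes PA28 gamma, a nuclear relative that forms rings on its own. It had 7716, 7534 and 7605 normalized reads in buffer and 6664, 6396 and 6784 with L-4F. All L-4F libraries were below all buffer libraries, and its log2 fold change of -0.20 (SE 0.027, limma adjusted p = 3.41e-06) was the lowest of the proteasome genes tested. Psme4, which encodes the large single-chain activator PA200, had 3047, 3085 and 2985 in buffer and 2795, 2944 and 2908 with L-4F. Its log2 fold change of -0.08 was not called (SE 0.035, limma adjusted p = 0.088), although the groups did not overlap. It was called lower under median centring (-0.12, limma adjusted p = 0.00801) and total-read scaling (-0.09, limma adjusted p = 0.0333). Psmf1, which encodes the inhibitor PI31, had a log2 fold change of 0.12 and was not called (SE 0.050, limma adjusted p = 0.0689), but was called without ABCT buffer replicate 3 (0.16, limma adjusted p = 0.0336) and with the 10 CPM filter (limma adjusted p = 0.0482). Psme2b, a near-identical copy of Psme2 whose reads the counting could have split, held 989, 977 and 1004 normalized reads in buffer and 1137, 1144 and 976 with L-4F. That log2 fold change of 0.13 was not called (limma adjusted p = 0.102), and without L-4F replicate 3 it was 0.20 and called (limma adjusted p = 0.00816).

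**Figure D3:**
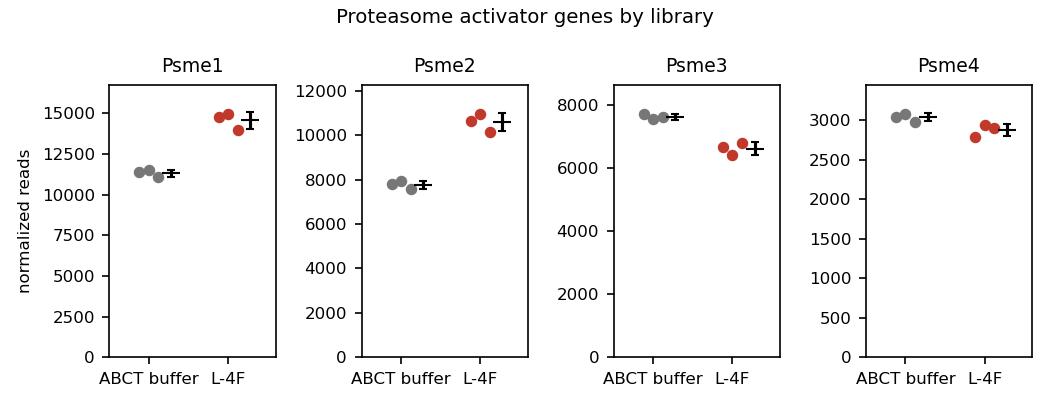
Normalized reads (vertical axes, from 0, one scale per gene) of the 4 genes for proteasome activators, with 1 point per library and the group mean with SD bars beside the points (n = 3 per group). The L-4F points lie above the buffer points for Psme1 and Psme2 and below them for Psme3 (6396 to 6784 against 7534 to 7716), and for Psme4 they lie below by a small margin.

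To show what lies upstream of genes that moved together, stretches before the annotated start are printed for Psmb10 and Psme2, the immunoproteasome genes with the largest changes, and for Psmb5 and Psmb6, 2 of the counterparts. They are from the RefSeq promoter table (GRCm38.p6), 5′ to 3′ on the strand of the gene, without any base that GENCODE M21 places in an exon. For Psmb8, whose upstream window lies in an exon of a longer transcript, only the 30 bases around a motif are shown. Capitals mark a motif match and lower case all other bases.
Psmb10 (chr8:105938445-105938642, minus strand): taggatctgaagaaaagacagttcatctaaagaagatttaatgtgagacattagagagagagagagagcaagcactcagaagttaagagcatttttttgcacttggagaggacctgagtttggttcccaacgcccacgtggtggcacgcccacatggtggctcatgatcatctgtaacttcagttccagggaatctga
Psme2 (chr14:55591114-55591351, minus strand): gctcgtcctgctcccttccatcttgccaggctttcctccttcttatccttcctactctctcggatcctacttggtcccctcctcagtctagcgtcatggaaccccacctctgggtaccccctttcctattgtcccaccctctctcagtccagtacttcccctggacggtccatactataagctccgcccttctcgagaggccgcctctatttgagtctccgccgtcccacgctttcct
Psmb8 (chr17:34198087-34198116, plus strand): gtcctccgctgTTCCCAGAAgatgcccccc
Psmb5 (chr14:54618023-54618245, minus strand): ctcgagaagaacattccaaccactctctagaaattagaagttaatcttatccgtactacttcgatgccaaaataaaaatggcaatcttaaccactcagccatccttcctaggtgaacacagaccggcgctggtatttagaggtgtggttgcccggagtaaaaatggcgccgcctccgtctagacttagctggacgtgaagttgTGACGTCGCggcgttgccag
Psmb6 (chr11:70525107-70525356, plus strand): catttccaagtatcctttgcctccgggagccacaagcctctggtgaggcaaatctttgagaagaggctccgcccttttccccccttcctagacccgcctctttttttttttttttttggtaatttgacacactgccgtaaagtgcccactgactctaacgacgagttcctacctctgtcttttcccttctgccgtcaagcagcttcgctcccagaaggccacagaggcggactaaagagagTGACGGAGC

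The capitals in Psmb8 are a match to TTCNNNGAA, the core of a gamma-activated site, which STAT proteins bind, with its first base 97 bases before the start. Those in Psmb5 and Psmb6 are matches to TGACNNNGC, the core of the antioxidant response element, which NRF1 and NRF2 bind, at 47 and 9 bases before the start. Windows of 300 bases (250 before and 50 after the start) were found for 41 of the 51 genes, and 4 motifs were searched on both strands. A gene counted when any of its windows held the motif, while the shares of all windows are per window, so the 2 measures are not alike. TGACNNNGC was in 6 of 36 other proteasome genes (16.7%), in none of the 5 immunoproteasome genes, and in 12.4% of all 32851 windows. TTCNNNGAA was in 1 of 5 immunoproteasome genes and 2 of 36 others (8.3% of all windows). The core of the interferon-stimulated response element (GAAA, then NN, then GAAA) was in 1 of 5, Psme1, and in 4 of 36 (3.44% of all windows). CCAAT was in 1 of 5, Psmb9, and in 13 of 36 (37.4% of all windows). The matches printed above overlap no other motif. These are matches of letters and were not tested as binding sites.

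The genes of the 20S alpha ring, the gate of the core, rose together. All 7 tested were called higher, with log2 fold changes between 0.23 and 0.28, and in each of them the groups did not overlap. Over all genes tested 18.4% were called higher and 23.2% had all L-4F libraries above all buffer libraries. Psma2 was highest at 0.28 (SE 0.027, limma adjusted p = 3.5e-08), with 5151, 5291 and 5307 normalized reads in buffer and 6296, 6473 and 6363 with L-4F. Psma1 and Psma6 were lowest, both at 0.23, with 3997, 4084 and 4157 against 4921, 4818 and 4609 for Psma1 and 3228, 3280 and 3143 against 3709, 3759 and 3847 for Psma6. Psma3, Psma4, Psma5 and Psma7 lay between these, at 0.27, 0.27, 0.24 and 0.26. With the transcript length trend removed 4 of the 7 stayed called higher (13.5% of all genes tested), and their class median was 0.08. Psma8, the form known from testis, had too few reads to be tested, with 5, 0 and 0 reads in buffer and 2, 5 and 8 with L-4F. A count of 0 in a library allows up to 3 reads, which is 0.0957 to 0.12 CPM at these depths (counting error only).

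The 7 constitutive beta ring genes, the catalytic 3 included, were likewise all called higher without overlap, over a wider range of 0.17 to 0.40. The shares over all genes tested were 18.4% called higher and 23.2% without overlap above buffer. Psmb1, a structural beta subunit, had the highest log2 fold change, 0.40 (SE 0.031, limma adjusted p = 8.83e-10), with 3949, 4175 and 4135 normalized reads in buffer and 5313, 5366 and 5529 with L-4F. Psmb2, another structural subunit, had the lowest, 0.17 (SE 0.031, limma adjusted p = 0.000179), with 3333, 3295 and 3297 and then 3735, 3749 and 3658. The change in Psmb1 thus came close to that in Psme2, and the intervals of these 2 log2 fold changes, 0.34 to 0.47 and 0.39 to 0.50, overlapped. Psmb3 stood at 0.34 and Psmb4 at 0.27. With the transcript length trend removed 4 of the 7 stayed called higher (13.5% of all genes tested). Their class median was then 0.09, and Psmb2 was at -0.05 and not called.

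In the 19S cap all 6 ATPase genes were called higher, without overlap between the groups, by 0.15 to 0.25 on the log2 scale. The shares over all genes tested were 18.4% called higher and 23.2% without overlap above buffer. Psmc3 was highest at 0.25 (SE 0.029, limma adjusted p = 5.66e-07), with 5828, 5927 and 5592 normalized reads in buffer and 7005, 6881 and 6690 with L-4F. Psmc4 was lowest at 0.15 (SE 0.031, limma adjusted p = 0.000553), with 4359, 4189 and 4127 and then 4767, 4702 and 4583. Psmc1, Psmc2, Psmc5 and Psmc6 stood at 0.18, 0.18, 0.19 and 0.16. With the transcript length trend removed 2 of the 6 ATPase genes stayed called higher, beside 3 of the 11 non-ATPase genes and 13.5% of all genes tested.

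Of the 11 non-ATPase genes of the cap 5 were called higher, 1 lower and 5 not. Over all genes tested 18.4% were called higher and 19.7% lower. The difference of these cap genes from the ATPase genes was not tested. Psmd13, which belongs to the lid, was highest at 0.31 (SE 0.032, limma adjusted p = 1.06e-07), with 3264, 3302 and 3230 normalized reads in buffer and 4052, 4146 and 3927 with L-4F. The ubiquitin receptor gene Psmd4 followed at 0.28 (limma adjusted p = 3.37e-07), and Psmd6, Psmd8 and Psmd7 stood at 0.21, 0.20 and 0.16. Psmd3, another lid gene, was the only one called lower, at -0.10 (SE 0.029, limma adjusted p = 0.0121), with 4500, 4384 and 4377 in buffer and 4130, 4167 and 4105 with L-4F. The groups did not overlap, but without ABCT buffer replicate 1 Psmd3 was at -0.08 and not called. The large scaffold genes Psmd1 and Psmd2, which hold the base of the cap together, were at -0.05 and 0.03 (limma adjusted p = 0.225 and 0.4). Psmd11 and Psmd12, of the lid, were at -0.03 and 0.06 (limma adjusted p = 0.5 and 0.223), and the deubiquitinase gene Psmd14 at 0.08 (limma adjusted p = 0.0686). For Psmd1, Psmd2, Psmd11 and Psmd12 the groups overlapped. For Psmd14 they did not, and it was called higher without ABCT buffer replicate 1 (0.11, limma adjusted p = 0.04), under quantile normalization (0.13), with the 10 CPM filter (0.08) and with the GC trend removed (0.10). The 95% intervals of the 5 uncalled genes reached from -0.12 to 0.15 in all, below the estimates of the 5 genes called higher.

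Assembly chaperones bind growing rings and leave the finished particle, and 6 of the 7 tested were called higher (18.4% of all genes tested). With the transcript length trend removed 2 were called higher, Psmd5 and Psmg2 (13.5% of all genes tested). Psmg2, whose product pairs with that of Psmg1 to start the alpha ring, was highest at 0.40 (SE 0.058, limma adjusted p = 8.78e-06), with 967, 834 and 925 normalized reads in buffer and 1214, 1218 and 1170 with L-4F. Psmg4, whose product works with that of Psmg3 on the same ring, stood at 0.35 (SE 0.093, limma adjusted p = 0.00469). Psmd10 and Psmd5, whose products hold ATPase subunits of the unfinished cap, stood at 0.30 and 0.25. With that trend removed Psmg4 was at 0.12 and Psmd10 at 0.14, neither called (limma adjusted p = 0.377 and 0.212), and Psmd10 was also not called without the trended robust spread (limma adjusted p = 0.0712). Psmg3 (0.22, limma adjusted p = 0.0446) and Psmg1 (0.20, limma adjusted p = 0.0262) passed the threshold narrowly. The groups overlapped for Psmg3, and both calls were lost when some single libraries were left out: Psmg3 without ABCT buffer replicate 1 or 2 or L-4F replicate 2 or 3, and Psmg1 without ABCT buffer replicate 1 or 2 or L-4F replicate 1 or 3. Psmd9, another chaperone of the ATPase ring, was lowest at 0.06 (SE 0.063, limma adjusted p = 0.455), with 886, 792 and 797 in buffer and 844, 911 and 832 with L-4F. Group means of these genes ran from 301 to 2144 normalized reads, and their SEs from 0.042 to 0.093.

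The remaining rows share only the symbol. Psmc3ip, which encodes a cofactor of meiotic recombination, had a log2 fold change of 0.20 and was not called (SE 0.085, limma adjusted p = 0.0693), but was called without ABCT buffer replicate 1 (0.26) and without L-4F replicate 2 (0.25). The pseudogene Psma5-ps was at -0.05 (limma adjusted p = 0.801). The pseudogene Psmb7-ps2 was not tested, with 1, 3 and 3 reads in buffer and 0, 7 and 11 with L-4F. Reads of pseudogenes can come from the parent gene.

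Transcript length moved with the treatment contrast over the whole table, so the proteasome genes, which are mostly short, are also given relative to it. Across 14910 genes the log2 fold change fell with the length of the longest transcript (Spearman rho -0.45, across genes, which are not independent replicates), and across the 49 proteasome genes rho was -0.33. Genes of 1000 to 1500 nucleotides had a median log2 fold change of 0.17, with 35.8% called higher and 4.89% lower. Genes over 5000 nucleotides had a median of -0.21, with 3.8% higher and 55.3% lower. The 12 proteasome genes in the first of these bins had a median of 0.23. The 13 in the bin from 1500 to 2000 nucleotides had a median of 0.25, where all genes had 0.13, and the 11 from 2000 to 3000 nucleotides had 0.22, where all genes had 0.06.

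**Figure D4:**
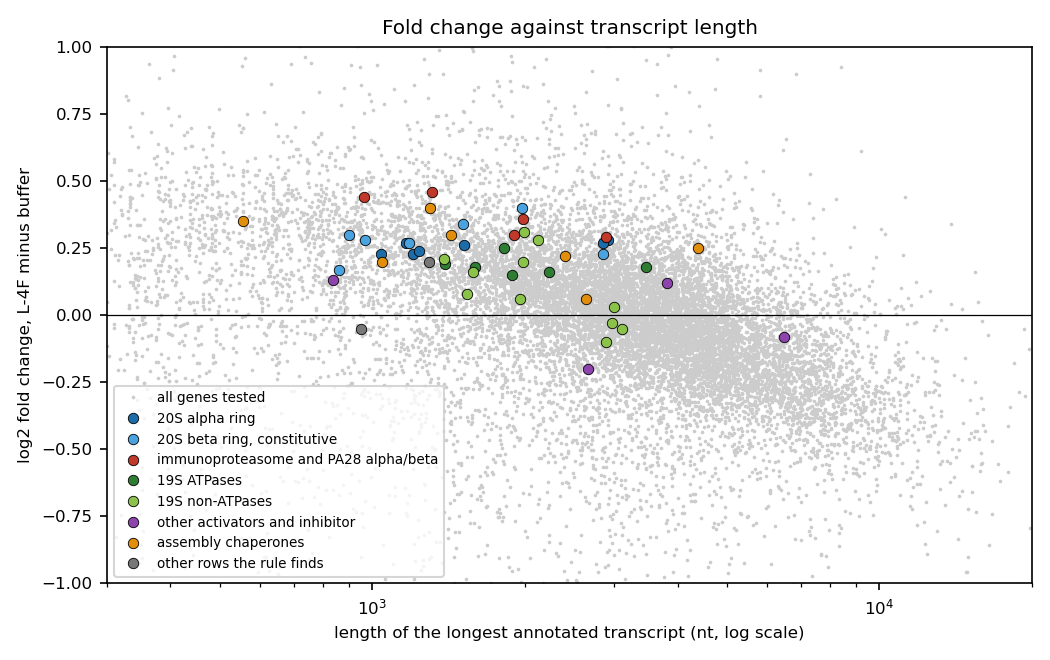
Log2 fold change (L-4F minus ABCT buffer, vertical axis) against the length of the longest annotated transcript (horizontal axis, nucleotides, log scale), with grey points for all genes tested and coloured points for proteasome genes by class; 531 genes lie outside the axes. The grey cloud slopes downward, and most proteasome genes lie above its centre at their own length, the 5 immunoproteasome genes (red) among them, while Psme3 lies below.

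After a smooth trend in longest transcript length was removed from each library, 22 of the 49 proteasome genes were called higher and 2 lower, beside 13.5% and 12.9% of all genes tested. With the length of the transcript that has the longest coding part, which is 1160 against 2849 nucleotides for Psmb7 and 1352 against 2884 for Psmb9, 19 were called higher and 2 lower, beside 13% and 12.7%. The median of the 44 other genes came down from 0.21 to 0.07 and 0.06 under these 2 lengths, and 17 and 14 of them stayed called higher. All 5 immunoproteasome genes were called higher under both, with medians of 0.25 and 0.18. With the coding length, Psmb10 stood at 0.31 (SE 0.038, limma adjusted p = 2.31e-06), Psme2 at 0.24 (SE 0.026, limma adjusted p = 5.03e-07), Psmb8 at 0.18 (SE 0.027, limma adjusted p = 1.81e-05), Psme1 at 0.18 (SE 0.024, limma adjusted p = 7.44e-06) and Psmb9 at 0.14 (SE 0.031, limma adjusted p = 0.00177). Psmb5, Psmb6 and Psmb7 were at 0.09, 0.06 and 0.05 on that scale and were not called (limma adjusted p = 0.105, 0.263 and 0.308). With the longest transcript instead, Psmb5 and Psmb6 were at 0.08 and 0.07 and not called, but Psmb7 was at 0.19 and called higher (limma adjusted p = 0.000243), beside 0.18 for Psmb8. Psmb1 (0.30), Psma2 (0.28), Psma3 (0.27), Psmd13 (0.23), Psmd5 (0.35) and Psmg2 (0.22) were among those still called higher, and Psme3 (-0.22) and Psmd3 (-0.16) were called lower. Psme4, whose longest transcript of 6491 nucleotides is the longest of the proteasome genes, turned from -0.08 to 0.14 and was called higher (limma adjusted p = 0.00384). Psmf1 rose to 0.18 and was called as well (limma adjusted p = 0.00971).

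Of 17 listed genes whose products work on the proteasome but fall outside the symbol rule, 5 were called higher and 4 lower, or 5 and 3 with the transcript length trend removed. The shares over all genes tested were 18.4% and 19.7%, or 13.5% and 12.9% with that trend removed. Pomp, whose product ripens the new core, had 2860, 2919 and 2950 normalized reads in buffer and 3793, 3837 and 3515 with L-4F, a log2 fold change of 0.35 (SE 0.036, limma adjusted p = 8.96e-08). Sem1, the smallest cap subunit, stood at 0.41 (limma adjusted p = 2.73e-05), Txnl1, a thioredoxin bound to the cap, at 0.23, and the cap deubiquitinase gene Uchl5 at 0.17. Adrm1, a ubiquitin receptor of the cap, and Usp14, another cap deubiquitinase, were at -0.02 and -0.03 and were not called (limma adjusted p = 0.738 and 0.571). Adrm1 was called lower with the coding length trend removed (-0.14, limma adjusted p = 0.00482). Usp14 was called higher with the exon length trend removed (0.11, limma adjusted p = 0.0217). Ecpas, whose product tethers core to cap, and the shuttle factor Rad23b were lower, both at -0.15. With the coding length trend removed Ecpas turned to 0.09 (limma adjusted p = 0.0227).

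Of 13 regulators of proteasome genes 2 were called higher and 5 lower, or 3 and 1 with the transcript length trend removed. Over all genes tested 18.4% were called higher and 19.7% lower, or 13.5% and 12.9% with that trend removed. Nfe2l1 encodes NRF1, which raises proteasome genes when the proteasome is inhibited, and it was lower at -0.16 (SE 0.032, limma adjusted p = 0.000275). Ddi2, whose product cleaves NRF1 into its active form, was lower at -0.25, and Ngly1, whose product removes its sugars, was higher at 0.24. Stat3 was lower at -0.22, and Nfe2l2, which encodes NRF2, was at 0.05 and not called (limma adjusted p = 0.215). With the transcript length trend removed Nfe2l1 was at -0.08, Stat3 at -0.04 and Ddi2 at 0.07, and none of the 3 was called (limma adjusted p = 0.0842, 0.229 and 0.151). With the coding length trend removed instead, all 3 stayed called lower, so the loss of these calls depends on the length used. Of 14 ubiquitin genes and enzymes 6 were called higher and 6 lower, or 5 and 3 with that trend removed. The shares over all genes are those given above for the regulators. The ubiquitin and ribosomal protein fusion gene Rps27a stood at 0.48, and the large ubiquitin ligase gene Huwe1 and the activating enzyme gene Uba1 at -0.66 and -0.21.

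Immunoproteasome genes are classical targets of interferon gamma, and of 21 genes of that pathway and of MHC class I peptide loading 12 were called higher and 5 lower, or 11 and 1 with the transcript length trend removed. Over all genes tested the shares were 18.4% and 19.7%, or 13.5% and 12.9% with that trend removed. On the loading side H2-K1 stood at 0.30 and H2-D1 at 0.22 (close copies exist, so both are uncertain), B2m, the light chain, at 0.25, Tapbp, which bridges class I to the transporter, at 0.23, and Tap2 at 0.10. Once the transcript length trend was removed B2m was at 0.03 and not called (limma adjusted p = 0.367), nor was it under quantile normalization (limma adjusted p = 0.22). Tap2 lost its call under median centring (0.06, limma adjusted p = 0.0836) and without the trended robust spread (limma adjusted p = 0.0685). Tap1, the other transporter chain and the neighbour of Psmb9, had 11109, 10835 and 10851 normalized reads in buffer and 11396, 11056 and 11582 with L-4F. Its log2 fold change of 0.05 was not called (SE 0.024, limma adjusted p = 0.0889). Taking out the trend in longest transcript length put Tap1 at 0.09, called higher (limma adjusted p = 0.00551). Tap1 was also called after removal of the exon length trend (0.10), under quantile normalization (0.06) and without L-4F replicate 2 (0.07). Whether Tap1 was called thus depended on the processing. Psmb9 and Tap1 lie head to head: their promoter windows share 275 bases and their exons 212 bases on opposite strands, which are 5.79% of the exon bases of Psmb9. On the signalling side Ifngr1 stood at 0.23 and Irf1 at 0.14, while Jak2, Stat2 and Jak1 were called lower at -0.24, -0.16 and -0.11. With the transcript length trend removed Irf1 was at 0.04, Stat2 at -0.09 and Jak1 at -0.01, none of them called, and Jak2 stayed called lower at -0.13 (limma adjusted p = 0.0183). Nlrc5, which drives class I and immunoproteasome genes, was lower at -0.24 (SE 0.021, limma adjusted p = 5.88e-09), and at -0.00 with the transcript length trend removed.

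Of the 51 proteasome rows, 16 share exon bases with another annotated gene, 5 of them on the same strand. Among the genes described above, Psmb8 shares 498 bases with Gm20496, Psmb7 shares 405 with Nek6 and Psmd13 shares 342 with Sirt3, all on the opposite strand, and Psmb5 shares 109 with Mir686 on the same strand. The libraries were made strand-specific, per the labels, but the sources used here do not give whether counting used the strand, so reads in these stretches may belong to either gene.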

How the data were processed

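RNA from 6 libraries was sequenced, 3 from CD8+ T cells given L-4F and 3 given ABCT buffer, grouped by their titles. Per the submitters' processing notes FastQC 0.11.2 and 0.11.5 and StringTie 1.3.1c were used; for the aligner, genome build and annotation: not given in the sources used here. Each of the deposited log2 values is log2 of reads divided by a library factor, plus 1, as worked out from the values: 100% returned whole reads within 0.05 read (largest gap 0.00131). The authors' deposited p-value and FDR (q-value) per gene were used for 1 alternative. Low genes were left out (under 10 normalized reads in more than 3 of 6 libraries), which left 14922 genes for limma (version 3.58.1, under R 4.3.3 with statmod 1.5.0), run on the authors' log2 scale with trended and robust empirical Bayes spread, two-sided, group only, with Benjamini-Hochberg adjustment over all genes tested. Shares of paired subunits were tested with an exact permutation test over libraries.

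The members and lists were chosen with earlier results of these data known. Values in all libraries are given for the immunoproteasome genes, their counterparts and the highest and lowest gene of each class. Of other lists, up to 6 genes with the smallest adjusted p were eligible, and those whose role touches the proteasome were taken whatever their result; some eligible genes are not reported. Alternatives were median centring, quantile normalization, total-read scaling, no filter, a filter at 10 CPM, no trended robust spread, limma-voom on recovered reads, library quality weights, a pseudocount of 0.1, the replicate number as a block, removal of length or GC trends (loess, span 0.3; lengths from GENCODE M21 on GRCm38), the authors' FDR and each library left out. The coding transcript length was added after seeing the data. The procedure was run on simulated data with a set length trend and spread that were not fitted to these data. The outcome of that run is not reported here. Within a group, library pairs differed by 2.19 to 2.72 times counting noise, so none was a copy.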

Additional observations from a re-analysis of the deposited data

How the results depend on the processing

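The immunoproteasome set had 5 of 5 genes called higher under all 22 alternatives run, and 18 of the 49 proteasome genes tested kept direction and call under all of them. Against 36 genes called higher, 22 were called with the transcript length trend removed, with or without the replicate block, 19 with the coding length trend removed, 26 with the exon length trend removed and 39 with the 10 CPM filter. Over all genes 18.4% were called higher in the main fit. That share was 13.5% with the transcript length trend removed, 12.8% with the block added and 13% with the coding length trend removed. It was 15.1% with the exon length trend removed and 28.2% with the 10 CPM filter, which tested 43 genes outside the set against 44. For the genes outside the set the counts were 17 with the transcript length trend removed, with or without the block, and 14 with the coding length, against 31. Against 2 called lower, there were 4 with median centring (beside 34 higher; over all genes 14.5% higher and 24.3% lower), 3 with total-read scaling (beside 35 higher), and 1 with quantile normalization, without the trended robust spread or with the exon length trend removed. Over all genes 21.7% were called lower with total-read scaling and 18.6% with quantile normalization. The share was 14.9% without the trended robust spread and 14.5% with the exon length trend removed. Leaving out 1 library gave 34 to 37 genes called higher, 29 to 32 of them outside the set, and 1 to 2 lower (1 without ABCT buffer replicate 1). Over all genes 15.8% to 17.1% were then called higher and 16.5% to 18.9% lower. The share of Psmb8 then moved by -0.35 to 0.60 percentage points, of Psmb9 by -0.26 to 0.62 and of Psmb10 by 3.10 to 3.84. The numbers of the titles are not known to pair the libraries. Correlations of same-numbered libraries were 0.051, 0.011 and 0.109, and those of unlike numbers ran from -0.081 to 0.03. Correlations this small cannot settle whether the libraries are paired. The replicate block gave 36 higher, 2 lower and 5 in the set. Signs that turned are next, as log2 fold changes. Without the transcript length trend, with or without the replicate block, these were Psmb2 -0.05, Psmd12 -0.06, Psmd14 -0.07, Psme2b -0.09, Psme4 0.12, Adrm1 0.04, Ddi2 0.07, Ecpas 0.07, Nfe2l2 -0.01 and Usp14 0.06. Without the exon length trend they were Psmb2 -0.02, Psmd1 0.06, Psmd11 0.05, Psmd12 -0.04, Psme2b -0.07, Psme4 0.06, Ecpas 0.06 and Usp14 0.11. Without the coding length trend they were Psmb2 -0.05, Psmd12 -0.03, Psmd14 -0.04, Psme2b -0.09, Psme4 0.14, Ecpas 0.09, Usp14 0.09 and Nlrc5 0.02. Under quantile normalization they were Psmd1 0.00, Psmd11 0.03, Adrm1 0.02 and Usp14 0.02, without the GC trend Psmd11 0.02 and Usp14 0.02, and with median centring Psmd2 -0.01. The cause was not tested beyond the alternatives' own construction. With 3 libraries a group, SEs were widest for the rows with the fewest reads, up to 0.144 for Psma5-ps, and no share can reach an exact p under 0.1.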
